A study of Homo sapiens with 24 samples.

Results

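The mRNAs of 47 nuclear genes that encode subunits of the oxidative phosphorylation complexes were followed across a study of DS07551382, an inhibitor of the phosphatidylserine synthase PTDSS1. The 47 members were chosen by name, from the 25343 genes listed in the files, as established subunits of the 5 complexes, by a rule that uses no measured value. Earlier results of these data were known when the members were chosen. They comprised 18 genes of complex I, 4 of complex II, 7 of complex III, 9 of complex IV and 9 of complex V. All 47 were found by gene identifier and all 47 passed the filter on low counts in every comparison. NDUFA4, which carries a complex I style name and is now listed as COXFA4, was placed in complex IV, where its protein is a known subunit.

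RNA was sequenced from HCT116, a human colon cancer line, and A375, a human melanoma line. There were 8 groups of 3 libraries, 24 in all. The groups were HCT116 PTDSS2-KO#3 with 0.1 µM DS07551382, HCT116 PTDSS2-KO#3 with DMSO, HCT116 parent with 0.1 µM DS07551382 and HCT116 parent with DMSO, and the same 4 groups for A375, whose knockout was PTDSS2-KO#54. All libraries were made after 24 h, and DMSO was the vehicle in every group without inhibitor. Each line had 1 knockout clone, so loss of PTDSS2 and other properties of that clone cannot be told apart. Nothing in the labels says whether the 3 libraries of a group came from separate cultures, so the p-values measure the spread between these libraries only.

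Oxidative phosphorylation takes place in the inner mitochondrial membrane. Complex I oxidises NADH and complex II oxidises succinate, complex III passes their electrons to cytochrome c, and complex IV passes them on to oxygen. Complexes I, III and IV pump protons as they do so, and complex V, the ATP synthase, uses the proton gradient to make ATP. Most subunits are encoded in the nucleus, translated in the cytosol and imported, and they are joined by a few subunits made from mitochondrial DNA, which were not analysed here. The phospholipids of the inner membrane include phosphatidylethanolamine, which mitochondria make from phosphatidylserine, the product of PTDSS1 and PTDSS2. Many promoters of these genes are known targets of the transcription factors NRF1, GABP (an ETS family factor) and YY1.

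Promoter sequences from RefSeq (GRCh38.p14), each 250 bases before to 50 after the gene start, were found for 38 of the 47 members. Each was searched on both strands for 4 short motifs, which do not overlap one another in the sequences printed here. The NRF1 core CGCATGCG was in 5 of 38 members (13.16%), against 2.19% of all 27305 promoters kept for the search. The ETS core CCGGAAGT was in 7 of 38 (18.42%), against 4.44% of all promoters, and the YY1 core AAGATGGCG was in 4 of 38 (10.53%), against 1.85%. The SP1 GC box GGGGCGGGG was in 15.79% of members, against 15.99% of all promoters. These shares are descriptions of the letters in this window, and nothing about binding was measured.

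The last 120 bases before the start are shown on the strand of the gene, 5′ to 3′, with NRF1 and ETS cores in capitals. Of the 38 members, those shown passed a test of inhibitor against vehicle or knockout against parent within a line, with a core wholly there. They were SDHD (chr11:112086753-112086872, + strand), a membrane anchor of complex II, COX5B (chr2:97645942-97646061, + strand) and COX8A (chr11:63974500-63974619, + strand) of complex IV, and ATP5F1C (chr10:7788057-7788176, + strand), the gamma subunit of complex V, all in GRCh38.p14. SDHD held an NRF1 core that began 109 bases before the start and an ETS core, on the opposite strand, that began 78 bases before it.
SDHD: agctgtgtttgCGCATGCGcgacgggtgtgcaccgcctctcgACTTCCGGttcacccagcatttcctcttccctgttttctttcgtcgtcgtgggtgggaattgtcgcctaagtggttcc
ATP5F1C: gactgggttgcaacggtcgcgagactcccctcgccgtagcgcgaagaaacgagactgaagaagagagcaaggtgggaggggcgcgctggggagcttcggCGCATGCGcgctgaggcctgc
COX5B: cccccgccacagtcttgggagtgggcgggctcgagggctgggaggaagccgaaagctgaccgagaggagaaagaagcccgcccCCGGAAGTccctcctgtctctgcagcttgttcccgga
COX8A: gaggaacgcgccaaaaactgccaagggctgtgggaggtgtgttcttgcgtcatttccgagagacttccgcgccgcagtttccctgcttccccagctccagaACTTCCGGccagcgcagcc
In ATP5F1C an NRF1 core began 21 bases before the start, in COX5B an ETS core began 37 bases before it and another, not in capitals, ran across the start, and in COX8A an ETS core on the opposite strand began 19 bases before it. The mRNAs of SDHD and ATP5F1C fell with the inhibitor in the HCT116 knockout, COX5B rose with it in the A375 knockout, and COX8A was higher in the HCT116 knockout than in its parent, with the values given below.

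The members were among the abundant mRNAs of both lines, and together they took a narrow share of the summed TPM (a transcript level scaled for gene length and library size, as the authors deposited it). They held 1.68% ± 0.02 of all TPM in HCT116 knockout cells with inhibitor, 1.76% ± 0.01 in the HCT116 knockout with vehicle and 1.72% ± 0.01 in each HCT116 parent group (SD, n = 3 each). In A375 they held 1.51% ± 0.02 in the knockout with inhibitor, 1.47% ± 0.01 in the knockout with vehicle and 1.45% ± 0.01 in the parent with vehicle. UQCRH, the hinge subunit of complex III, COX7C of complex IV and ATP5F1B, the catalytic beta subunit of complex V, led the order. Their means over the 8 groups were 1351, 1308 and 1219 TPM. The complex I genes NDUFA10 and NDUFA5 closed the order at 33.0 and 30.3 TPM. Reads of UQCRH can also fit the near-identical copy UQCRHL, so the split between those genes is uncertain, and several members have processed pseudogenes with the same limit.

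The summed level also differed between complexes and was lowest for complex II, which has the fewest members. In HCT116 knockout cells with inhibitor it was 3784 ± 65 TPM for complex I, 565 ± 5.7 for complex II, 2516 ± 48 for complex III, 5410.4 ± 88 for complex IV and 4575 ± 66 for complex V (SD, n = 3). The same sums were 3935 ± 35, 609.8 ± 6.8, 2687 ± 12, 5494 ± 79 and 4849 ± 31 TPM in that clone with vehicle. In A375 knockout cells with inhibitor complex IV summed to 5124 ± 141 TPM, against 4821 ± 40 TPM with vehicle. For complex V the A375 sums were 3319 ± 16 TPM with inhibitor and 3351 ± 30.01 TPM with vehicle. Member mRNAs were short, with a median length of 930 bases as the files list it, against 2210 bases over all listed genes.

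PTDSS2 followed the labels in every library. In CPM (counts scaled to library size, comparable within a line), HCT116 knockout libraries had 7.19, 4.87 and 5.07 with inhibitor and 5.46, 6.42 and 7.91 with vehicle, against 34.4 to 39.4 in the 3 parent libraries with inhibitor and 33.1 to 37.8 in those with vehicle. A375 knockout libraries had 1.91, 1.17 and 1.80 CPM with inhibitor and 0.921, 0.996 and 0.723 CPM with vehicle, against 21.4 to 24.6 CPM in parent libraries with inhibitor and 22.2 to 24.1 CPM with vehicle. PTDSS1, the target of the inhibitor, had 79.6, 81.2 and 76.4 CPM in HCT116 knockout libraries with inhibitor and 108, 108 and 109 CPM with vehicle. In A375 knockout libraries PTDSS1 had 163, 147 and 165 CPM with inhibitor and 177, 165 and 175 CPM with vehicle. In vehicle PTDSS2 differed between knockout and parent by -4.71 on the log2 scale in A375 and by -2.43 in HCT116, and PTDSS1 fell with the inhibitor by 0.12 in the A375 knockout (edgeR adjusted p = 0.0145) and by 0.45 in the HCT116 knockout (edgeR adjusted p = 2.24e-10).

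Library totals ran from 6210000 to 11690000 expected counts, with a median of 9200000. The HCT116 knockout libraries with inhibitor were the shallowest group, at 6210000 to 7910000, against 8830000 to 9110000 with vehicle. Of 12 colon epithelial markers, 6 averaged above 1 CPM in HCT116, and CDX1 was at 0 in all 4 of its groups. Their summed level was 3487 to 3571 CPM in the HCT116 knockout with inhibitor and 4012 to 4278 CPM with vehicle. Of 10 melanocyte lineage markers, 5 averaged above 1 CPM in A375, and TYR was at 0. Their summed level was 829 to 893 CPM in the A375 knockout with inhibitor and 628 to 667 CPM with vehicle. In the HCT116 knockout those 10 melanocyte genes summed to 61.2 to 68.3 CPM with inhibitor and about 47 to 53.6 CPM with vehicle, with TYR, S100B and PAX3 at 0, and the 12 colon genes in the A375 knockout to 212 to 227 CPM with inhibitor and 270.1 to 285 CPM with vehicle, with KRT20, CDH17, CDX1, CDX2, VIL1 and CEACAM5 at 0. The 4 leukocyte markers summed to at most 1.33 CPM in any library, and the 4 fibroblast markers to 23.8 to 24.0 CPM in the HCT116 knockout with inhibitor and 16.3 to 20.4 CPM with vehicle, with DCN and LUM at 0. The part of depth or of these marker shifts in the results below was not tested, and fewer cells of a state and less RNA per cell cannot be told apart in bulk RNA.

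In HCT116 PTDSS2 knockout cells, 15 of the 47 members fell with the inhibitor and 1 rose. Across all 13164 genes tested, 19.6% fell and 17.0% rose, while the members' shares were 31.9% and 2.13%. A member was called when its Benjamini-Hochberg adjusted p, over all genes tested with edgeR's quasi-likelihood test, was under 0.05. The changes were small: all 47 log2 fold changes lay between -0.30 and 0.33, and their median was -0.05, against 0.00 over all genes tested. Without regard to sign, the median size of the change was 0.08 for members and 0.17 over all genes tested. Members with lower values outnumbered those with higher values by 35 to 12.

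Complex I contributed the one rise and 5 falls among its 18 genes. NDUFS8 encodes a core subunit of the matrix arm that holds iron-sulfur clusters. It had 72.8, 68.4 and 67.1 CPM in HCT116 knockout libraries with inhibitor and 52.8, 58.5 and 55.3 CPM with vehicle. Each inhibitor library lay above every vehicle library, and the log2 fold change was 0.33 ± 0.06 (SE; edgeR adjusted p = 3.22e-05). The falls were in NDUFA9, an accessory subunit where the arms of the complex join, at -0.19 ± 0.06 (edgeR adjusted p = 0.00575), and in NDUFV2, an iron-sulfur subunit of the NADH-oxidising end, at -0.16 ± 0.05 (edgeR adjusted p = 0.00618). NDUFA8, an accessory subunit, had the largest fall in complex I at -0.21 ± 0.07 (edgeR adjusted p = 0.00883). The accessory subunit genes NDUFA5 and NDUFB3 also fell, each by 0.16.

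In complex II, SDHD and SDHB fell while SDHA and SDHC had values near 0. SDHD had 112, 116 and 115 CPM in HCT116 knockout libraries with inhibitor and 129, 131 and 136 CPM with vehicle, so the groups did not overlap. Its log2 fold change was -0.21 ± 0.04 (edgeR adjusted p = 0.00023). SDHB, the iron-sulfur subunit, changed by -0.15 ± 0.05 (edgeR adjusted p = 0.00775).

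In complex III the 3 falls were in UQCRFS1, UQCRC2 and CYC1. UQCRC1, UQCRB, UQCRH and UQCRQ were not called, with log2 fold changes of 0.01, 0.08, -0.09 and 0.0007. UQCRFS1, the Rieske iron-sulfur protein, had 106, 92.9 and 97.4 CPM in HCT116 knockout libraries with inhibitor and 116, 120.5 and 117 CPM with vehicle. The inhibitor libraries were all lower, with a log2 fold change of -0.25 ± 0.05 (edgeR adjusted p = 9.34e-05). UQCRC2, a core protein, changed by -0.18 ± 0.04 (edgeR adjusted p = 0.000192). CYC1, a haem-bearing cytochrome of the complex, had 351, 325 and 324 CPM with inhibitor and 362, 370.3 and 351 CPM with vehicle. Its log2 fold change was -0.11 ± 0.03 (edgeR adjusted p = 0.00789), and every inhibitor library was lower, the nearest by under 1 CPM.

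Complex V had 5 falls among 9 genes, and 8 of the 9 had negative values. ATP5MC3, one of the genes that encode the same mature c subunit of the membrane rotor, had 210.2, 211 and 202 CPM in HCT116 knockout libraries with inhibitor. With vehicle it had 259.7, 258 and 251 CPM, well above all inhibitor libraries. Its log2 fold change was -0.30 ± 0.04 (edgeR adjusted p = 1.04e-08). ATP5MC1, another c subunit gene, changed by -0.18 ± 0.05 (edgeR adjusted p = 0.00317) and ATP5F1C by -0.14 ± 0.04 (edgeR adjusted p = 0.00325). ATP5PB, of the peripheral stalk, and ATP5F1D, of the central stalk, fell by 0.12 and 0.13. The most abundant member of the complex, ATP5F1B, had 1114, 1120.3 and 1073 CPM with inhibitor and 1141, 1152 and 1128 CPM with vehicle and was not called.

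With all libraries, none of the 9 complex IV genes was called with edgeR, DESeq2 or limma-voom, and 0 of 9 had an unadjusted p under 0.05 with edgeR. COX4I1 was called without inhibitor replicate 1 (edgeR adjusted p = 0.0284) and COX5B without vehicle replicate 2 (edgeR adjusted p = 0.0463). With all libraries, the log2 fold changes of the 9 complex IV genes ran from -0.07 to 0.07. COX4I1, a regulatory subunit with the smallest p of the complex, had 400.4, 371 and 369 CPM in HCT116 knockout libraries with inhibitor and 396, 416 and 387 CPM with vehicle, and the groups overlapped. COX7A2 had 155, 161 and 157 CPM with inhibitor and 156, 169 and 167 CPM with vehicle, again with overlap.

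Of the 15 falls, 9 held, as did the rise of NDUFS8, when each of the 6 libraries was left out in turn and in every other alternative tried. Without vehicle replicate 1 NDUFB3 was no longer called, without vehicle replicate 2 ATP5MC1, and without vehicle replicate 3 NDUFA5 and NDUFB3. Without inhibitor replicate 1 NDUFA5 and NDUFA9 were lost, without inhibitor replicate 2 NDUFA5, NDUFB3, CYC1 and ATP5F1D, and without inhibitor replicate 3 NDUFB3, CYC1 and ATP5F1D, with edgeR adjusted p of 0.0519 to 0.149.

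**Figure D1:**
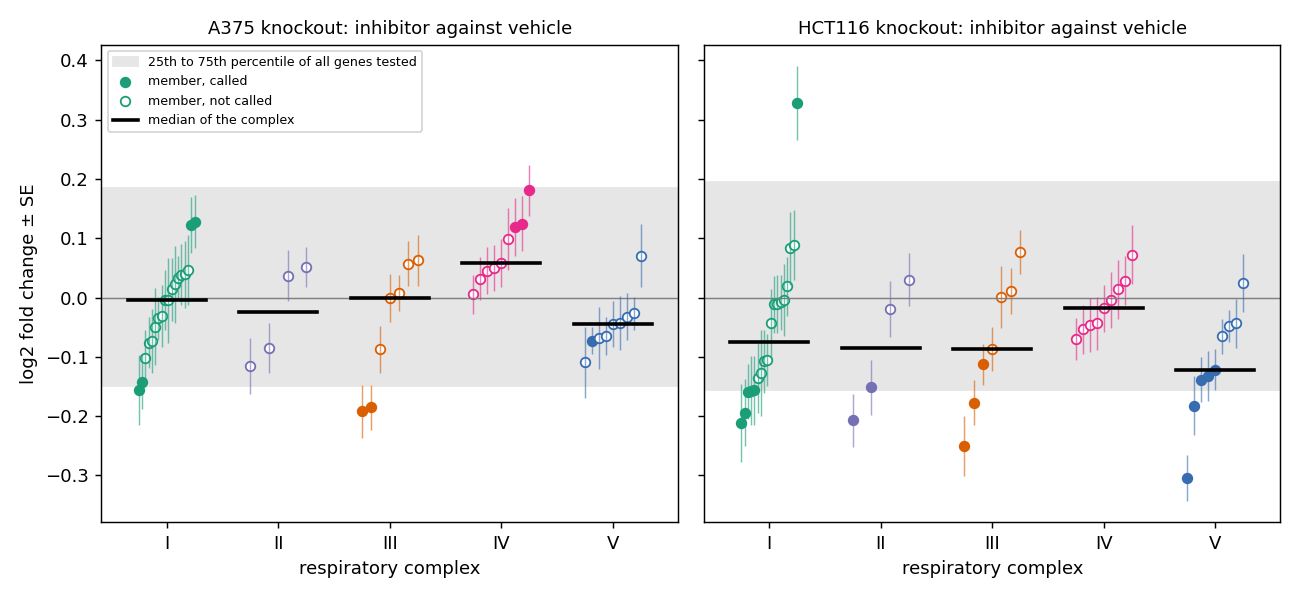
Log2 fold change (y axis, bars ± SE) of each member with inhibitor against vehicle in the knockout clones, by respiratory complex (x axis). Filled points passed the test, open points did not, black lines are complex medians and the grey band runs from the 25th to the 75th percentile of all genes tested. In the HCT116 knockout complex V had the lowest median and complex IV no called member, and in the A375 knockout all 9 complex IV genes lay above 0.

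In A375 PTDSS2 knockout cells, 5 members rose and 5 fell, each 10.6% of the 47. Of all 13455 genes tested in this line, 18.6% rose and 18.8% fell, so the members' shares were below the background in each direction. DESeq2 called 1 rise and 3 falls, and limma-voom 2 rises and 5 falls, and neither called NDUFA4, NDUFB8 or COX5B. Log2 fold changes ran from -0.19 to 0.18 with a median of -0.0009, against 0.01 over all genes tested, and the sign of the members' median changed with the scaling.

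Complex III again held falls in CYC1 and UQCRFS1. CYC1 had 185, 177 and 165 CPM in A375 knockout libraries with inhibitor and 195, 197 and 206 CPM with vehicle, with no overlap. Its log2 fold change was -0.18 ± 0.04 (edgeR adjusted p = 0.000111). UQCRFS1 had 98.9, 95.8 and 94.98 CPM with inhibitor and 113, 107 and 110.3 CPM with vehicle. The groups were apart, and the log2 fold change was -0.19 ± 0.04 (edgeR adjusted p = 0.000595).

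All 9 complex IV genes had positive values in the A375 knockout, and 3 of them rose. COX7A2, the ubiquitous form of a small structural subunit, had 121, 133 and 123 CPM in A375 knockout libraries with inhibitor and 109, 114 and 109.8 CPM with vehicle. The inhibitor libraries were all higher, and the log2 fold change was 0.18 ± 0.04 (edgeR adjusted p = 0.000665). NDUFA4 changed by 0.12 ± 0.05 (edgeR adjusted p = 0.0316) and COX5B by 0.12 ± 0.05 (edgeR adjusted p = 0.0482). COX4I1 had 295, 321 and 292 CPM with inhibitor and 297, 294 and 312 CPM with vehicle, with overlap and no call.

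Complex I was split, with 2 genes up and 2 down. NDUFV2 had 82.1, 89.2 and 85.4 CPM in A375 knockout libraries with inhibitor and 94.0, 93.8 and 95.6 CPM with vehicle. It was lower in each inhibitor library, with a log2 fold change of -0.14 ± 0.05 (edgeR adjusted p = 0.0133). A375 parent libraries with vehicle had 82.4, 82.9 and 91.0 CPM of NDUFV2, which overlapped the knockout libraries with inhibitor. NDUFA10, an accessory subunit of the membrane arm, changed by -0.16 ± 0.06 (edgeR adjusted p = 0.0349). NDUFS1, the largest core subunit, rose by 0.13 ± 0.04 (edgeR adjusted p = 0.0193) and NDUFB8, an accessory subunit of the membrane arm, by 0.12 ± 0.05 (edgeR adjusted p = 0.0358). NDUFS8, the member that rose in the HCT116 knockout, had 59.5, 56.2 and 54.3 CPM with inhibitor and 54.8, 57.9 and 52.0 CPM with vehicle in A375, which overlapped.

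Complex V had 1 fall, in ATP5F1B, with 1050.3, 1039 and 1028 CPM in A375 knockout libraries with inhibitor and 1094, 1100.4 and 1084 CPM with vehicle. The difference was small for a precisely measured mRNA, at -0.07 ± 0.02 on the log2 scale (edgeR adjusted p = 0.0123). ATP5MC3 had 167, 178 and 161 CPM with inhibitor and 171, 176 and 175 CPM with vehicle, and the groups overlapped. Of the 4 complex II genes none was called in edgeR's fit of all libraries, by DESeq2 or by limma-voom, and 1, SDHD, had an unadjusted p under 0.05 with edgeR. SDHD lay close to the threshold, at an edgeR adjusted p of 0.0524, and was called in 3 alternatives (0.0245 to 0.04998), while SDHB was called without vehicle replicate 2 (edgeR adjusted p = 0.0494). SDHD had 85.2, 90.4 and 81.0 CPM with inhibitor and 91.2, 90.6 and 95.6 CPM with vehicle, so every inhibitor library was below the vehicle libraries by a small margin.

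Of these 10 calls, those of CYC1, UQCRFS1 and COX7A2 held with each library left out and in every other alternative. COX5B was lost without any one of vehicle replicates 1, 2 and 3 or inhibitor replicates 1 and 2, and NDUFA10 without vehicle replicate 1 or 3 or any inhibitor replicate. NDUFA4 was lost without any vehicle replicate or without inhibitor replicate 2, and NDUFB8 without vehicle replicate 2 or inhibitor replicates 2 or 3. NDUFS1 and NDUFV2 were lost without vehicle replicate 3 or inhibitor replicate 1, and ATP5F1B without inhibitor replicate 3, with edgeR adjusted p of 0.0525 to 0.225 in all. The count of rises was 3 when vehicle replicate 1 or inhibitor replicate 1 was left out, and 2 when vehicle replicate 2, vehicle replicate 3 or inhibitor replicate 2 was. The count of falls was 3 without vehicle replicate 3 or without inhibitor replicates 1 or 3.

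The knockout comparisons of A375 and HCT116 share no library. CYC1, UQCRFS1 and NDUFV2 fell in both, 24 of 47 members were called in neither, and none was called in opposite directions. Of the 12003 genes tested in both lines, 2.98% were called in opposite directions. Falls in both made up 6.38% of the members and 9.72% of those genes, and 51.1% of the members and 43.2% of those genes were called in neither. Across the 47 members, which are not independent replicates, the log2 fold changes of the lines had a correlation of 0.57 (Pearson) and 0.68 (Spearman), given as a description. Values were negative in both lines for 22 members, positive in both for 10, positive in A375 and negative in HCT116 for 13, and negative in A375 and positive in HCT116 for 2.

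The difference between the responses was tested directly, as the A375 effect minus the HCT116 effect. Of 14637 genes tested, 10.4% had a higher and 8.31% a lower effect in A375, and of the 47 members 2 were higher and 1 lower. The effect on ATP5MC3 was higher in A375 by 0.27 ± 0.05 on the log2 scale (edgeR adjusted p = 0.000164), that on COX7A2 by 0.24 ± 0.06 (edgeR adjusted p = 0.00174), and that on NDUFS8 differed by -0.28 ± 0.09 (edgeR adjusted p = 0.0159). The next members, NDUFA10 at -0.17 ± 0.08, COX6C at 0.15 ± 0.07 and NDUFS1 at 0.14 ± 0.07, did not pass, with edgeR adjusted p of 0.130 to 0.132. The call of NDUFS8 was lost without A375 knockout vehicle replicate 2, A375 knockout inhibitor replicate 3, HCT116 knockout vehicle replicate 1 or HCT116 knockout inhibitor replicate 1, with edgeR adjusted p of 0.0571 to 0.0788, which left 0 lower members. In 40 of 47 members the value was positive, with a median of 0.07, against 0.00 over all genes tested.

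**Figure D2:**
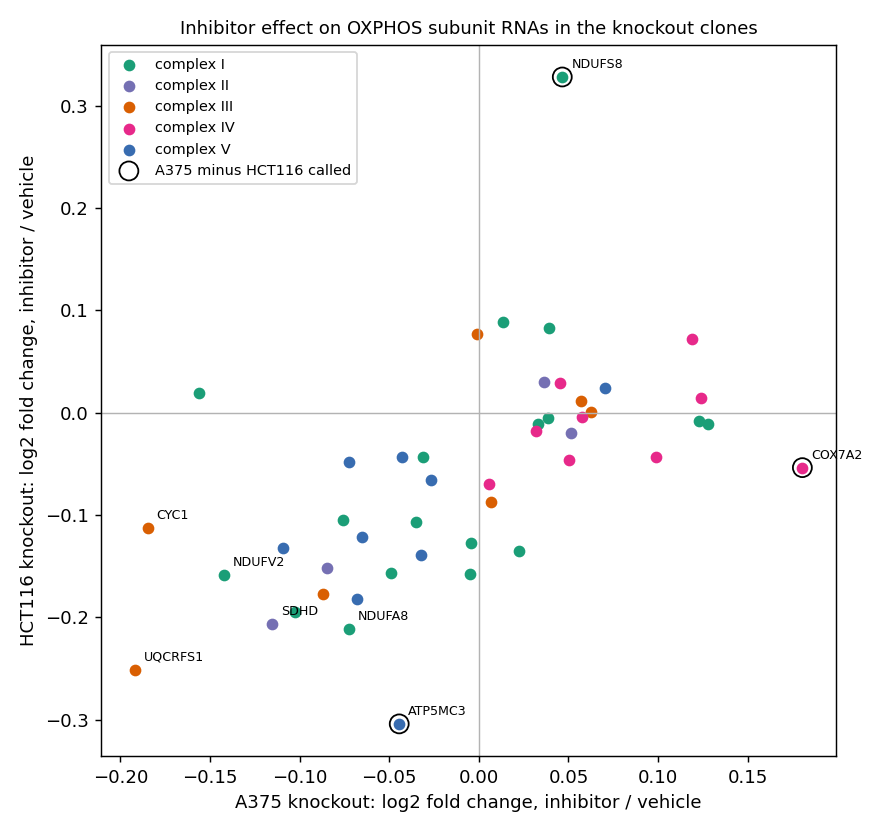
Log2 fold change with inhibitor against vehicle in the A375 knockout (x axis) and in the HCT116 knockout (y axis), one point per member, coloured by complex. Rings mark ATP5MC3, COX7A2 and NDUFS8, whose effects differed between the lines, and CYC1, UQCRFS1 and NDUFV2 lie low on both axes.

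**Figure D3:**
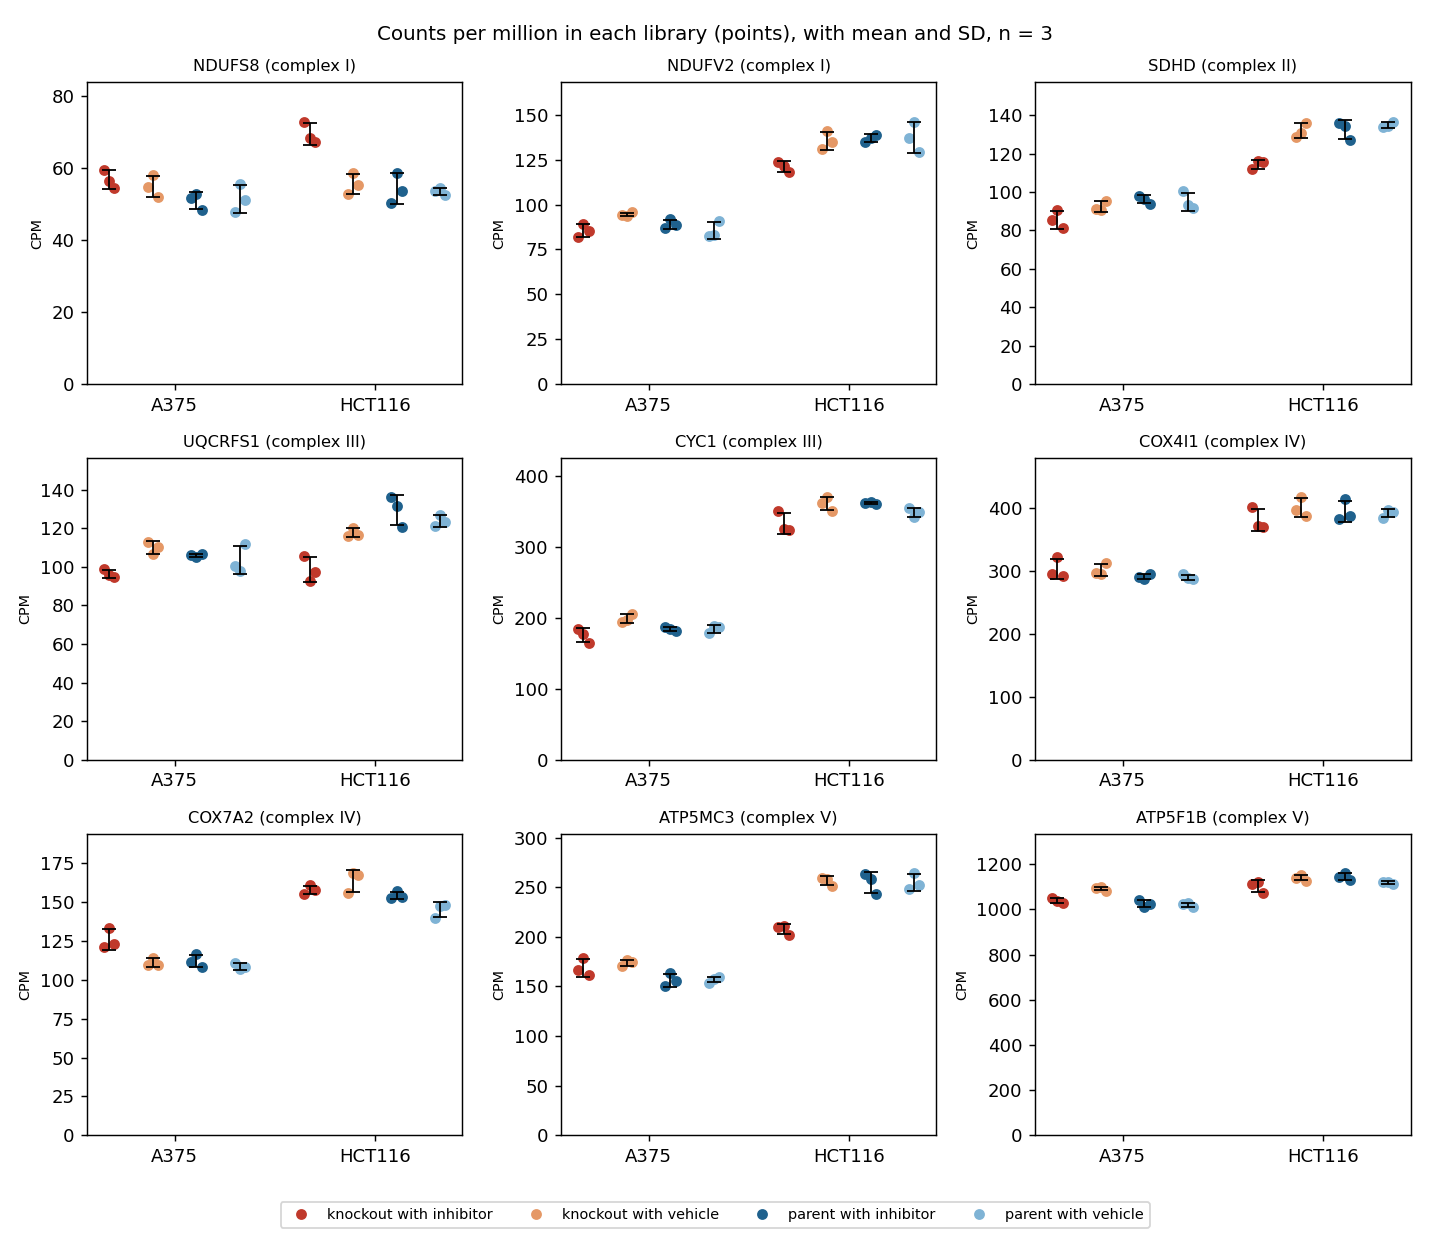
CPM (y axis, from 0) in each of the 24 libraries for 9 members, with the mean and SD of each group of 3. Within each line the groups run from knockout with inhibitor to parent with vehicle. In HCT116 the NDUFS8 points of the knockout with inhibitor stand above, and the ATP5MC3 points below, all other HCT116 libraries.

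Other genes of the same pathway were described by fixed lists, with the shares of all genes tested as the background. In the knockouts with inhibitor these were 18.6% up and 18.8% down in A375, and 17.0% up and 19.6% down in HCT116. A second list held 34 further genes, most of them for subunits and with cytochrome c among them. Of these, 12 fell and 3 rose in the HCT116 knockout with inhibitor, with a median of -0.09. In the A375 knockout 3 fell and 2 rose, with a median of -0.03, and both shares were below the background. CYCS, cytochrome c itself, had the smallest p of that list in each line, with log2 fold changes of -0.23 ± 0.03 in A375 (edgeR adjusted p = 2.9e-07) and -0.38 ± 0.03 in HCT116 (edgeR adjusted p = 1.65e-12). In HCT116 NDUFB4 fell by 0.25 ± 0.05 and NDUFA13 rose by 0.20 ± 0.05, and in A375 UQCR10 fell by 0.21 ± 0.07 and ATP5F1E rose by 0.14 ± 0.04. A list of 8 isoforms and copies of subunit genes held UQCRHL and NDUFA4L2, a paralogue of NDUFA4 known as a hypoxia-inducible gene. In A375 3 were tested, and NDUFA4L2 rose by 1.12 ± 0.27 (edgeR adjusted p = 0.000775). In HCT116 2 were tested and none was called.

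Genes for the import and the synthesis of mitochondrial proteins had more falls than rises in both knockouts. Of 25 import and inner membrane carrier genes, 15 fell and 1 rose in the A375 knockout with inhibitor and 17 fell and 1 rose in the HCT116 knockout. TOMM40, the channel of the outer membrane, changed by -0.35 ± 0.04 in A375 (edgeR adjusted p = 5.94e-11) and by -0.43 ± 0.05 in HCT116 (edgeR adjusted p = 2.06e-09). Of 20 large mitochondrial ribosomal protein genes, 12 fell in each knockout, with medians of -0.16 in A375 and -0.21 in HCT116. Examples were MRPL20 at -0.41 ± 0.04 in A375 and MRPL12 at -0.35 ± 0.04 in A375 and -0.29 ± 0.04 in HCT116. Of 20 small ribosomal protein genes 12 fell and 1 rose in the A375 knockout and 9 fell in the HCT116 knockout, among them MRPS2 at -0.35 ± 0.05 in A375 and MRPS12 at -0.41 ± 0.06 in HCT116.

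Assembly factors and regulators also had more falls than rises. Of the assembly factors 12 of 46 fell and 4 rose in the A375 knockout, and 14 of 47 fell and 2 rose in the HCT116 knockout. COA4, a factor for complex IV, changed by -0.41 ± 0.06 in A375, and NDUFAF4, a factor for complex I, by -0.58 ± 0.08 in HCT116. Of 13 tested regulators of mitochondrial biogenesis 5 fell in the A375 knockout and 8 fell in the HCT116 knockout. PPRC1, a coactivator related to PGC-1, changed by -0.21 ± 0.04 in A375 and -0.31 ± 0.04 in HCT116, and TFAM, the packaging factor of mitochondrial DNA, by -0.26 ± 0.06 in A375 and -0.33 ± 0.05 in HCT116. Of 17 cristae and cardiolipin genes 5 fell in A375, and 7 fell and 2 rose in HCT116. LETM1, an inner membrane ion transport protein, changed by -0.30 ± 0.04 in A375 and by -0.39 ± 0.04 in HCT116. PISD, which makes phosphatidylethanolamine in mitochondria, rose by 0.29 ± 0.06 in HCT116.

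Fuel pathway genes were called in both directions. Of 23 citric acid cycle and pyruvate dehydrogenase genes, 4 rose and 4 fell in the A375 knockout, both shares a little below those of all genes tested. In the HCT116 knockout 3 rose and 6 fell. FH, fumarase, changed by -0.32 ± 0.03 in A375 and by -0.33 ± 0.06 in HCT116, and IDH3A, of isocitrate dehydrogenase, by -0.42 ± 0.05 in HCT116. PC, pyruvate carboxylase, rose by 0.59 ± 0.07 in A375. Of 23 glycolysis genes 11 rose and 6 fell in A375, and 5 rose and 10 fell in HCT116. SLC2A1, the glucose transporter GLUT1, changed by -0.32 ± 0.03 in A375 and by -0.78 ± 0.05 in HCT116, and the glycolytic regulator PFKFB4 rose by 0.74 ± 0.06 in A375.

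In parent cells the inhibitor left no called member in either line. In A375 parent cells 0 of 47 passed with edgeR, DESeq2 or limma-voom and 0 had an unadjusted p under 0.05 with edgeR, where 12 of all 13455 genes were called (0.0892%, of which 0.0223% rose and 0.0669% fell). Log2 fold changes ran from -0.07 to 0.07, and the smallest p among members was that of NDUFB9, at 0.07 ± 0.04 (edgeR adjusted p = 0.774). COX7C, UQCRH, SDHB, ATP5F1C and SDHC followed with values of 0.05 to 0.07 and edgeR adjusted p of 0.813 to 0.861. In HCT116 parent cells 0 of 47 passed with edgeR, DESeq2 or limma-voom, and 0% of all genes were called. The members NDUFA5 at 0.15 ± 0.05, NDUFB6 at 0.15 ± 0.06 and COX7A2 at 0.09 ± 0.04, 3 in all, had an unadjusted p under 0.05 with edgeR there, and an adjusted p of 0.999. The next were COX8A at 0.09 ± 0.05, NDUFA4 at 0.08 ± 0.05 and CYC1 at 0.05 ± 0.03.

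Whether the inhibitor effect differed between knockout and parent was tested as an interaction within each line. In HCT116, 1 member had a higher and 8 a lower effect in the knockout than in the parent, or 2.13% and 17.0%, against 10.9% and 13.5% of all genes tested. NDUFS8 was the higher one at 0.31 ± 0.09 (edgeR adjusted p = 0.00643). The lowest p belonged to ATP5MC3 at -0.31 ± 0.05 (edgeR adjusted p = 1.25e-05), UQCRFS1 at -0.32 ± 0.07 (edgeR adjusted p = 0.000335), NDUFA5 at -0.30 ± 0.08 (edgeR adjusted p = 0.00267) and NDUFA9 at -0.28 ± 0.08 (edgeR adjusted p = 0.00614). CYC1 followed at -0.17 ± 0.05 (edgeR adjusted p = 0.00711), and the others were SDHD at -0.18, NDUFA8 at -0.25 and UQCRC2 at -0.14. The libraries of parent cells behind these values can be read for ATP5MC3, with 264, 258 and 243 CPM in HCT116 parent libraries with inhibitor and 248, 264 and 253 CPM with vehicle. Those groups overlapped. For NDUFS8 the parent libraries had 50.1, 58.7 and 53.5 CPM with inhibitor and 53.7, 54.3 and 52.3 CPM with vehicle, also with overlap. For UQCRFS1 they had 136, 132 and 121 CPM with inhibitor and 121, 127 and 123 CPM with vehicle. For NDUFA5 they had 105, 99.6 and 91.8 CPM with inhibitor and 90.9, 94.3 and 83.2 CPM with vehicle. Its value of -0.30 therefore includes the change in the parent libraries as well as the fall in the knockout.

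UQCRC2 lost its HCT116 interaction call in 11 of the 12 fits without a library, all except that without knockout inhibitor replicate 2. NDUFA8 lost it without parent vehicle replicate 3, parent inhibitor replicate 1 or 2, knockout vehicle replicate 1 or 2, or knockout inhibitor replicate 2 or 3. SDHD lost it without parent inhibitor replicate 1 or 2, knockout vehicle replicate 3 or knockout inhibitor replicate 1. The edgeR adjusted p values without those libraries were 0.05005 to 0.157, and 5 lower members were left without parent inhibitor replicate 1 or 2.

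In A375 3 members had a lower effect in the knockout than in the parent (6.38%), against 13.8% of all genes tested, and 0 a higher one, against 13.0%, so that 26.9% of all genes differed in one direction or the other. With an unadjusted p under 0.05 there was 1 member with a higher effect, COX7A2. The members with a lower effect were UQCRFS1 at -0.22 ± 0.06 (edgeR adjusted p = 0.00701), CYC1 at -0.18 ± 0.05 (edgeR adjusted p = 0.00923) and NDUFV2 at -0.20 ± 0.07 (edgeR adjusted p = 0.0207). These were the members that fell in both knockouts, and UQCRFS1 and CYC1 passed this test in each line. The knockout libraries behind those falls enter this test too, and the share of all genes that passed it in both lines was not computed. SDHB at -0.15 ± 0.06, ATP5F1B at -0.08 ± 0.03 and ATP5PB at -0.11 ± 0.05 came next, with edgeR adjusted p of 0.0538 to 0.0772. A375 parent libraries had 106, 105 and 106 CPM of UQCRFS1 with inhibitor and 101, 97.9 and 112 CPM with vehicle, and 188, 184 and 182 CPM of CYC1 with inhibitor and 178, 188 and 188 CPM with vehicle. In each case the groups overlapped. NDUFV2 lost its call without parent vehicle replicate 1 or 2, parent inhibitor replicate 2 or knockout inhibitor replicate 1, and CYC1 without knockout inhibitor replicate 3, with edgeR adjusted p of 0.0622 to 0.0758. By DESeq2 and limma-voom 0 members had a higher effect, and without parent inhibitor replicate 2 the count was 1.

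**Figure D4:**
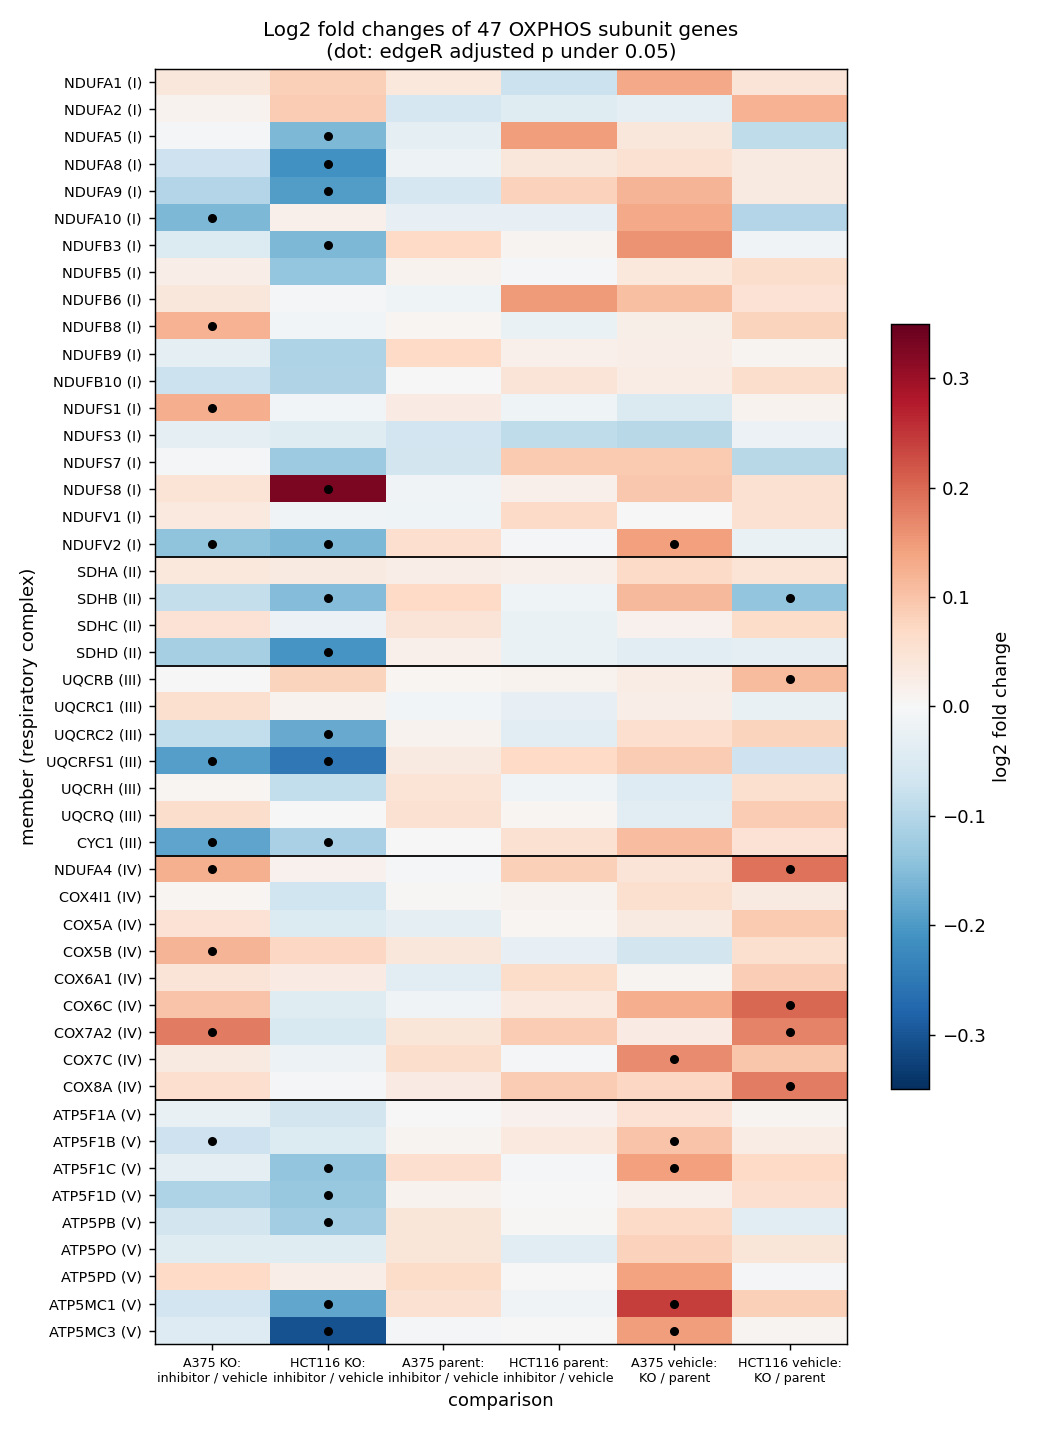
Log2 fold change (colour) of the 47 members (rows, grouped by complex) in 6 comparisons (columns), with a black dot where the edgeR adjusted p was under 0.05. The columns of inhibitor against vehicle in parent cells carry no dot, and complex IV carries its dots in the A375 knockout with inhibitor and in the vehicle columns.

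Knockout and parent cells were also compared in vehicle. In the HCT116 clone 5 members were higher than in the parent (10.6%), against 10.5% of all genes tested, and 1 was lower (2.13%), against 10.8%. Of the 5, 4 belonged to complex IV, and all 9 genes of that complex had positive values, with a median of 0.10. They were COX6C at 0.20 ± 0.04 (edgeR adjusted p = 0.000421), COX7A2 at 0.17 ± 0.04 (edgeR adjusted p = 0.000866), NDUFA4 at 0.19 ± 0.05 (edgeR adjusted p = 0.00256) and COX8A at 0.18 ± 0.05 (edgeR adjusted p = 0.00284). UQCRB, a small complex III subunit, was higher by 0.11 ± 0.04 (edgeR adjusted p = 0.0184) and SDHB differed by -0.14 ± 0.04 (edgeR adjusted p = 0.0121). COX7A2 had 156, 169 and 167 CPM in HCT116 knockout libraries and 139.8, 147 and 148 CPM in parent libraries, all in vehicle, with no overlap. UQCRB was lost without knockout replicate 2 or 3 or parent replicate 2 or 3, COX8A without knockout replicate 2, and SDHB without knockout replicate 1, with edgeR adjusted p of 0.0577 to 0.108. Without knockout replicate 2 there were 3 higher and 2 lower members, and without knockout replicate 1 there were 0 lower.

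In the A375 clone 6 members were higher than in the parent in vehicle (12.8%), against 9.18% of all genes tested, and 0 were lower with edgeR, DESeq2 or limma-voom, against 6.54%. With an unadjusted p under 0.05 0 members were lower. Of the 6, 4 belonged to complex V, where all 9 genes had positive values and the median was 0.10. ATP5MC1 was higher by 0.24 ± 0.06 (edgeR adjusted p = 0.00168), ATP5F1B by 0.10 ± 0.02 (edgeR adjusted p = 0.00236), ATP5MC3 by 0.15 ± 0.04 (edgeR adjusted p = 0.008) and ATP5F1C by 0.14 ± 0.04 (edgeR adjusted p = 0.0129). COX7C was higher by 0.17 ± 0.04 (edgeR adjusted p = 0.00158) and NDUFV2 by 0.14 ± 0.05 (edgeR adjusted p = 0.0355). ATP5F1B had 1094, 1100.4 and 1084 CPM in A375 knockout libraries and 1024, 1027 and 1010.1 CPM in parent libraries, with no overlap. NDUFV2 was lost without any knockout replicate or without parent replicate 1 or 2, ATP5F1C without knockout replicate 3 or parent replicate 1 or 2, and ATP5MC3 without parent replicate 1, with edgeR adjusted p of 0.0603 to 0.186. With library size alone as the scaling 2 members were higher, and NDUFV2, ATP5F1B, ATP5F1C and ATP5MC3 were no longer called. The vehicle libraries of each knockout enter both this comparison and the inhibitor comparison of that clone.

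The largest differences among these genes lay between the lines. In parent cells with vehicle, 10 members were higher in A375 than in HCT116 (21.3%) and 29 were lower (61.7%), against 42.3% and 39.5% of all 14637 genes tested, or 81.8% in either direction. The median was -0.25, against 0.03 over all genes. All 9 complex V genes were lower in A375, with a median of -0.68 and a range of -1.01 to -0.07, and 1 of them, ATP5F1B, was no longer called without A375 parent vehicle replicate 3 (edgeR adjusted p = 0.0675). NDUFA10 had the lowest value of all members, with 19.4 ± 1.7 TPM in A375 and 48.7 ± 1.7 TPM in HCT116 (SD, n = 3 each) and a log2 fold change of -1.27 ± 0.05 (edgeR adjusted p = 3.58e-31). ATP5F1A, the alpha subunit of complex V, averaged 428 ± 7.4 TPM in A375 and 709 ± 8.4 TPM in HCT116 and differed by -0.68 ± 0.03 (edgeR adjusted p = 3.76e-31). CYC1 averaged 321 ± 8.0 TPM in A375 and 601 ± 14 TPM in HCT116 and differed by -0.85 ± 0.04 (edgeR adjusted p = 4.09e-31). UQCRC2 at -0.77 ± 0.04 and ATP5PO, of the peripheral stalk, at -0.88 ± 0.04 were also lower, with edgeR adjusted p of 5.76e-28 and 8.71e-28.

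Some members of the same complexes stood the other way. UQCRH averaged 1682 ± 30 TPM in A375 and 1054 ± 21 TPM in HCT116, with a log2 fold change of 0.73 ± 0.03 (edgeR adjusted p = 2.44e-29). SDHC, which anchors complex II together with SDHD, had the highest value at 0.75, with 126 ± 1.8 TPM in A375 and 77.5 ± 1.0 TPM in HCT116. SDHD itself was lower in A375 by 0.44 on the log2 scale, so the anchor genes of complex II differed in opposite directions. In complex IV, NDUFA4 was higher in A375 at 0.43 and COX6C lower at -0.68. The summed TPM of complex V was 3199 ± 2.8 in A375 and 4823 ± 51 in HCT116, while complex III summed to 2821 ± 59 in A375 and 2645 ± 46 in HCT116 (SD, n = 3 each).

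**Figure D5:**
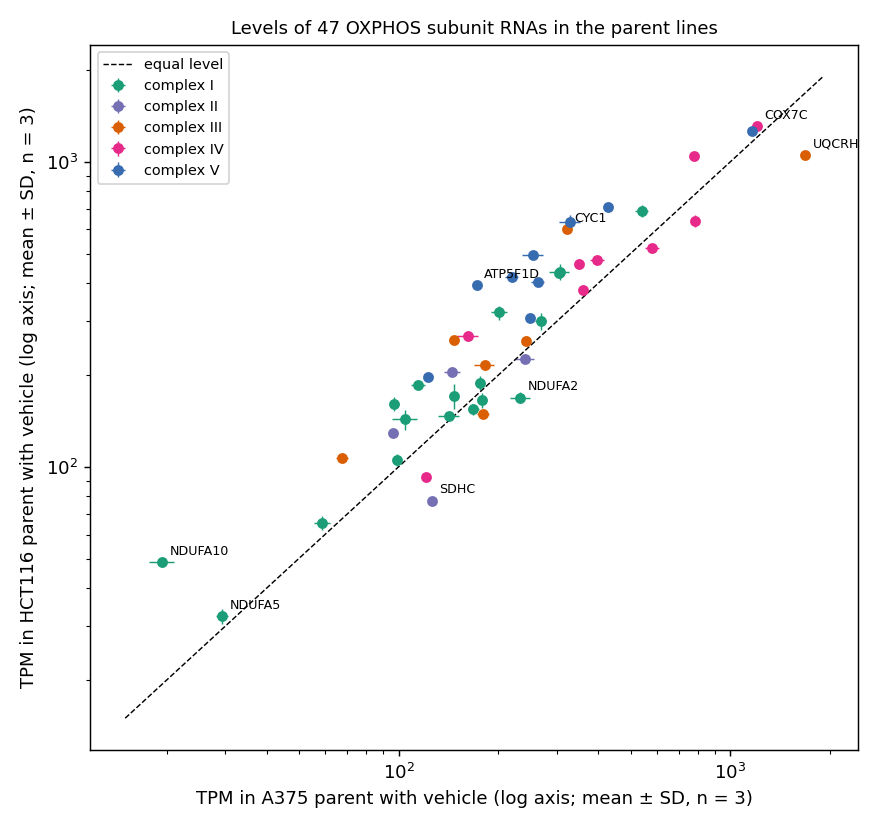
Mean TPM ± SD (n = 3) of each member in A375 parent cells (x axis, log scale) and HCT116 parent cells (y axis, log scale), both with vehicle, coloured by complex, with the line of equal levels dashed. All complex V genes lie above the line, with higher levels in HCT116, and UQCRH and SDHC lie below it.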

How the data were processed

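RNA-seq was made from 24 libraries in 8 groups of 3. The submitters' processing notes name STAR 2.4.2a, RSEM 1.2.23 and the build hg19. For each library the authors deposited estimated counts per gene (RSEM's expected count), TPM (scaled for length) and FPKM, and the FPKM values were not used further. Expected counts were rounded to whole numbers and tested with edgeR 4.0.16 in R 4.3.3 (robust quasi-likelihood test). TMM scaling was made over the libraries of each fit, and genes were kept at a count of 10 and a total of 15. There was 1 fit per line and 1 fit of all 24 libraries for comparisons between lines. P-values were adjusted by Benjamini-Hochberg over all genes tested, and SE is the log2 fold change over the root of F. CPM values are on the TMM scale within a line. Levels of both lines are given in TPM, while log2 fold changes and tests between lines came from the fit of all 24 libraries. RSEM divides reads shared by near-identical genes, so members with copies are less certain. Library totals of 6210000 to 11690000 set the counting precision, and genes without a symbol held at most 0.0724% of counts and stayed in the fit. Gene symbols came from gene identifiers through the reference table, with older names allowed.

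The alternatives were DESeq2 1.42.0, limma-voom (limma 3.58.1), other scalings and filters, other samples in the fit, TPM beside CPM (with a pseudocount of 1 or 0.1) for medians, a replicate block, each library left out and edgeR's legacy method, the last added after seeing the data. Members and lists were chosen with earlier results of these data known. Each complex's member with the smallest adjusted p in each knockout comparison is given by library, and others by rank of p or size of change. The fits were tested on simulated data with known changes. The replicate numbers showed no strong pairing of the libraries.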

Additional observations from a re-analysis of the deposited data

Results flagged for a closer look

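Effects of the inhibitor that differed between groups, each by a test of the difference itself in edgeR's fit across all genes (Benjamini-Hochberg adjusted p), were found for 11 members in 15 tests. Members called were 9, 3 and 3 of 47 in the 3 comparisons below, where 24.4%, 26.9% and 18.7% of all genes tested were called. In HCT116, the knockout effect minus the parent effect was -0.30 for NDUFA5, -0.25 for NDUFA8, -0.28 for NDUFA9 and 0.31 for NDUFS8 on the log2 scale. It was -0.18 for SDHD, -0.14 for UQCRC2, -0.32 for UQCRFS1, -0.17 for CYC1 and -0.31 for ATP5MC3. In A375 the same difference was -0.20 for NDUFV2, -0.22 for UQCRFS1 and -0.18 for CYC1. The knockout effect in A375 minus that in HCT116 was -0.28 for NDUFS8, 0.24 for COX7A2 and 0.27 for ATP5MC3. The adjusted p of these differences ran from 1.25e-05 for ATP5MC3 in HCT116 to 0.0479 for UQCRC2. The calls of UQCRC2 and NDUFA8 in HCT116 were lost in 14 and 8 of 21 alternatives. UQCRFS1 and CYC1 were the members that differed between knockout and parent in both lines, and the share of all genes that did so was not computed.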

How the results depend on the processing

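No called member reversed its direction in any setting tried, and 128 single calls were lost and 81 gained over all of them. With each library left out in turn, the HCT116 knockout counts with inhibitor ran from 1 to 2 up and 12 to 17 down, and the A375 knockout counts from 2 to 4 up and 3 to 7 down. In vehicle, knockout against parent gave 3 to 6 up and 0 to 2 down in HCT116, and 4 to 7 up and 0 down in A375. The knockout minus parent effect gave 1 up and 5 to 11 down in HCT116, and 0 to 1 up and 2 to 4 down in A375. The knockout effect in A375 minus HCT116 gave 2 up and 0 to 1 down, and the parent lines 10 up and 27 to 32 down. Library size alone gave 2 up in the HCT116 knockout with inhibitor, 3 down in the A375 knockout, 2 up for A375 knockout against parent and 1 up for the A375 knockout minus parent effect. A filter at a mean of 5 CPM gave 2 up in the HCT116 knockout, and no filter 3 down in the A375 knockout. DESeq2 gave 1 up and 3 down in the A375 knockout, 0 down for HCT116 knockout against parent and 5 down for the HCT116 knockout minus parent effect, and limma-voom gave 2 up in the A375 knockout. The cause was not tested. With the replicate block, counts were 1 up and 16 down in the HCT116 knockout with inhibitor, 4 up and 5 down in the A375 knockout, and 12 down for the HCT116 knockout minus parent effect. Same-numbered libraries showed no strong shared deviation, with 1 of 18 correlations over 0.1 in each line. By mean correlation 6 of 12 HCT116 and 3 of 12 A375 libraries were closest to their own number. With 3 libraries a group the SE of a member's log2 fold change was 0.02 to 0.07 in both knockout comparisons.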
